A study of Homo sapiens with 26 samples.

Results

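DST, RSPRY1, RESF1 and NRIP1 encode proteins that are not listed as mitochondrial, yet their ribosomes were enriched among those biotinylated at the outer mitochondrial membrane (OMM). The log2 ratio of OMM pulldown to total input of their mRNAs was higher in cells without AKAP1 than in wild-type cells. For DST it went from -0.79 and -0.91, a depletion, to 0.03 and 0.34. Non-mitochondrial here means not matched to the study's list, which leaves in some genes, such as MTLN and UQCC5, whose products are known in mitochondria. These 4 genes were picked from measured values. They belong to the 74 of 6273 non-mitochondrial genes (1.18%) whose log2 ratio of pulldown to total input exceeded 1.5 in mito replicate 1, and they were the only genes of the 74 whose OMM enrichment rose in AKAP1 null cells with an adjusted p below 0.05 in edgeR. Of all 13856 genes tested, 6.52% were called higher and 7.96% lower in AKAP1 null cells, and both shares moved in either direction under the alternatives given in the closing section. A ratio needed 64 coding footprints in total input, which 6989 genes had in that replicate, and 157 of them (2.25%) passed 1.5.

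All samples were made in HEK293T, an established line from human embryonic kidney, in which the ribosomal protein RPL29 carried an Avi tag at its own locus. LOCL-TL uses LOV-BirA, a biotin ligase that is active in blue light and marks only tagged ribosomes close to it. Streptavidin then separates the marked ribosomes (pulldown) from the lysate they came from (total input). Footprints were sequenced from cells with LOV-BirA on the ER through Sec61β, on the OMM through the tail anchor of OMP25 (the mito samples) or free in the cytosol, with 2 replicates per location. Intact mRNA was sequenced with OMM-located LOV-BirA from wild-type cells carrying a negative control gRNA (WT), from AKAP1 null cells and from LARP4 null cells, each with 2 replicates, and from 1 lysate made without cycloheximide (CHX), a drug that halts elongating ribosomes. No label states CHX for the WT and null lysates, and its use there is assumed because only the other lysate is labelled as made without it. LOV-BirA was driven by the SFFV promoter on the ER and by the EF1α promoter elsewhere, in sorted polyclonal lines. Each null line was a single CRISPR-Cas9 clone, so that a clone's own features and the loss of the gene cannot be told apart. The study calls its mito replicates biological, while nothing in the labels says that replicates were separate cultures, and p-values measure the spread between these lysates.

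Most mitochondrial proteins are made from nuclear genes, and some of their mRNAs are translated at the organelle's surface. Long proteins can be brought there by the emerging chain with its targeting signal, whereas an mRNA can also be held there by a protein that binds the message itself. AKAP1 is an OMM-anchored scaffold that binds protein kinase A and, through its KH domain, RNA. LARP4 is a La-related protein that binds poly(A) tails and poly(A)-binding protein.

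None of the 4 proteins is known as a resident of mitochondria. DST (dystonin, ENSG00000151914) is a giant plakin that ties intermediate filaments to microtubules and actin. RSPRY1 (ENSG00000159579) carries a RING finger and a SPRY domain. RESF1 (ENSG00000174718) is a retroelement silencing factor that works with the histone methyltransferase SETDB1. NRIP1 (ENSG00000180530), also called RIP140, is a corepressor of nuclear receptors and a regulator of metabolic genes.

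Their gene structures had little in common. On GRCh38 (GENCODE 44), DST spans chr6:56457987-56954830 on the minus strand, and its canonical transcript encodes a protein of 7818 amino acids in exons that all hold coding sequence. RSPRY1 spans chr16:57186137-57240469 on the plus strand, with 14 coding exons and 576 amino acids. RESF1 lies at chr12:31959370-31993107 on the plus strand and has 3 coding exons, of which 1 holds 95.4% of the coding sequence for 1747 amino acids. NRIP1, at chr21:14961235-15065936 on the minus strand, has its whole coding sequence of 1158 amino acids in 1 exon, as did 4.97% of the genes measured. Every one of them was longer than the median of 475 amino acids over the measured genes, and 60.3% (RSPRY1), 88.0% (NRIP1), 95.1% (RESF1) and 99.97% (DST) of those genes were shorter. The coding lengths in the footprint tables were 29996 nt for DST, 1709 nt for RSPRY1, 5077 nt for RESF1 and 3477 nt for NRIP1, where that of DST exceeds its canonical coding sequence. No protein-coding gene overlapped any of them. DST and NRIP1 each had 3 non-coding neighbours on the other strand, whose reads could not be told apart where the counting ignored strand. NRIP1 also had 1 on its own strand, whose reads cannot be told apart by strand at all.

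The first 30 bases of each coding sequence (the canonical transcript in GENCODE 44) show the start site that separates coding sequence from 5′ UTR in that transcript, since both kinds of footprint are compared below. The counted regions are not limited to it: the counted 5′ UTRs of DST, RSPRY1, RESF1 and NRIP1 were 2285, 1023, 481 and 983 nt long, against 243, 278, 418 and 793 nt in the canonical transcripts. The start codon is in capitals.
DST: ATGatcgccgcggctttcctcgtcttgctg
RSPRY1: ATGatcgtctttggttgggccgtgttctta
RESF1: ATGaattggaatgaaaaaccaaagagtgct
NRIP1: ATGactcatggagaagagcttggctctgat
They lie at chr6:56954558-56954587 (minus strand), chr16:57204659-57204688 (plus), chr12:31980956-31980985 (plus) and chr21:14968163-14968192 (minus).

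The null lines were checked first. AKAP1 stood at 115 and 119 CPM (counts scaled to the library total) in the total inputs of WT, at 32.2 and 20.3 CPM in those of AKAP1 null cells, and at 120 and 142 CPM in those of LARP4 null cells. LARP4 stood at 225 and 231 CPM in WT and at 79.3 and 74.0 CPM in LARP4 null cells. Both targeted mRNAs were thus lower in every library of their own null line than in every WT library. HEK293T markers were present in all RNA-seq total inputs, 3 of them well above the rest (VIM at a median of 498 CPM, EN2 at 56.4 CPM, NEFM at 31.2 CPM). The other HEK293T markers, PAX2 (median 6.95 CPM) and LHX1 (median 3.16 CPM, lowest 1.00 CPM), had medians below every value of COL1A1, a collagen gene listed as a marker of other cell types, which ranged from 7.16 to 23.1 CPM. Of the other markers of that kind, CD3E, HBB and COL1A2 were listed at 0 in each of them, PTPRC did not exceed 0.0261 CPM, ALB did not exceed 0.156 CPM and PECAM1 did not exceed 0.130 CPM.

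All 4 genes were thinly translated. In RPKM, reads scaled to coding length and library size, the ribosome profiling total inputs gave DST a median of 0.432 RPKM (0.259 to 0.676), RESF1 2.39 RPKM (1.74 to 3.99), NRIP1 5.02 RPKM (4.34 to 7.43) and RSPRY1 5.34 RPKM (3.94 to 7.01). The median over 6436 genes with 64 footprints in all 6 of those libraries was 28.4 RPKM. The range of DST lay below all others and that of RESF1 below that of NRIP1, while RSPRY1 overlapped both of these. Per kilobase, mRNA levels in the 7 RNA-seq total inputs were closer together, with medians of 2.84 CPM per kb for DST, 8.34 for RESF1, 10.1 for RSPRY1 and 10.6 for NRIP1. The ratios rested on 85 to 386 footprints per total input for DST, 94 to 282 for RSPRY1, 92 to 425 for RESF1 and 165 to 663 for NRIP1.

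At the OMM, the values that chose the genes ran from far above the threshold to just over it. NRIP1 had a log2 enrichment of 3.23 in mito replicate 1 (165 footprints in total input, 318 in pulldown), rank 6 of 6987 genes. RSPRY1 had 2.75 (rank 16) and RESF1 2.59 (rank 21). DST had 1.52 from 85 and 50 footprints, and its exact 95% counting interval of 0.98 to 2.04 covered the threshold. The nearest non-mitochondrial genes above 1.5 were HSP90B1 (1.501), an ER chaperone, and C1orf53 (1.514), and the nearest below were C1orf122 (1.4981) and DPM3 (1.4975), a subunit of the enzyme that makes dolichol phosphate mannose.

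Replicate 2 of the mito samples, which the choice did not use, gave the same order. NRIP1 reached 3.05, RSPRY1 2.62 and RESF1 2.42, and 3 of the 4 genes again exceeded 1.5. Of all 7051 genes, 2.35% did so. Of the 74 non-mitochondrial genes above 1.5 in replicate 1, to which the members belong, 56 exceeded it in both replicates. Passing again thus says nothing particular about the members. DST reached 1.09 (202 and 199 footprints), which leaves it below the threshold, with a 95% counting interval of 0.80 to 1.38. In the edgeR quasi-likelihood fit without the mito replicate 1 lysate, all 4 genes were enriched, where 13.5% of 7067 genes were called higher. The fitted log2 enrichment was 3.06 ± 0.22 (SE) for NRIP1 (Benjamini-Hochberg adjusted p = 3.0e-06), 2.63 ± 0.21 for RSPRY1 (adjusted p = 7.4e-06), 2.43 ± 0.28 for RESF1 (adjusted p = 9.7e-05) and 1.10 ± 0.22 for DST (adjusted p = 0.0021), against a median of -0.37 over all genes. This fit takes the lone mito lysate to vary like the ER and cytosol lysates, and without a term for the lysate no member passed (adjusted p from 0.063 for NRIP1 to 0.33 for DST).

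**Figure D1:**
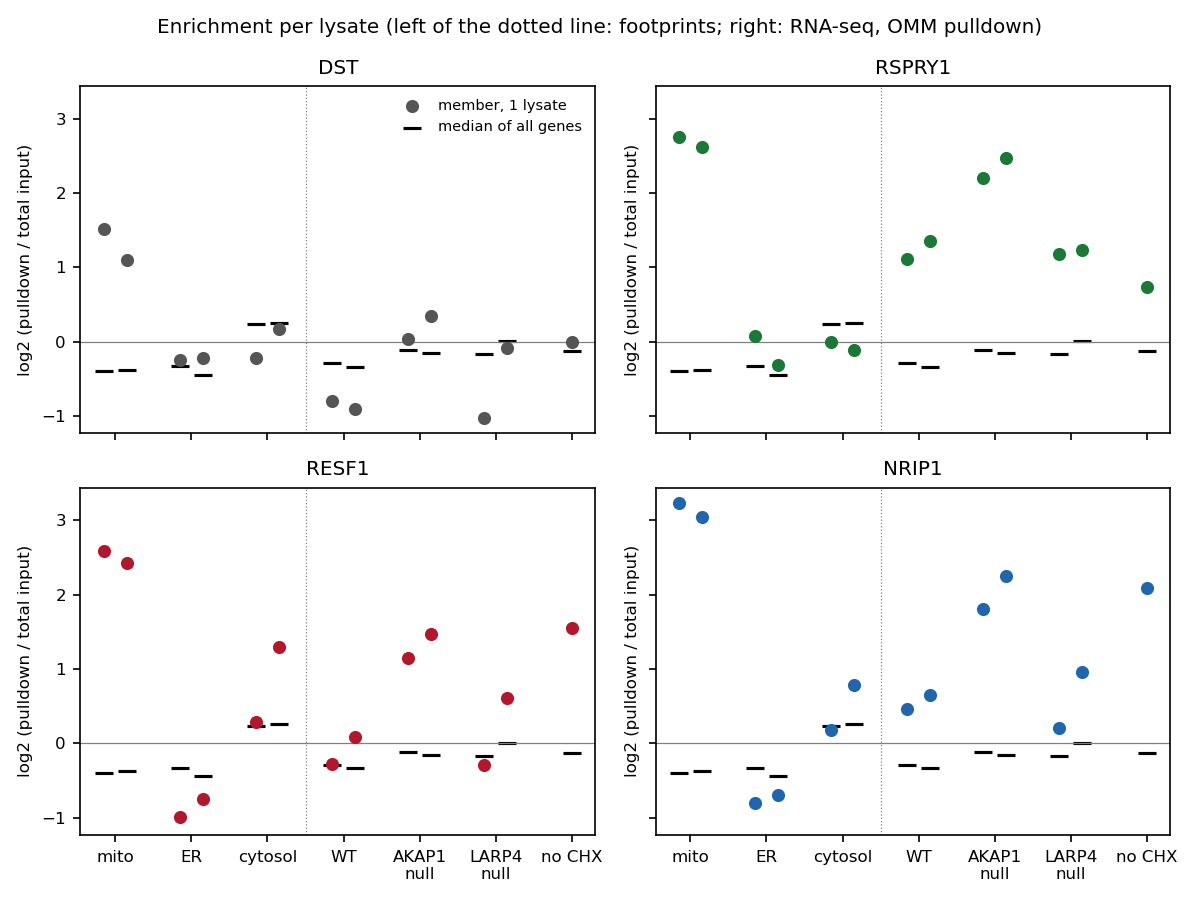
Log2 ratio of pulldown to total input (y axis) for each member in each of the 13 lysates (points), grouped on the x axis by LOV-BirA location (footprints, left of the dotted line) or by RNA-seq group (right), with the median of all genes measured in that lysate (black bars). In WT lysates RSPRY1 and NRIP1 lie above the bars, RESF1 at or above them and DST below. Every member lies higher in both AKAP1 null lysates than in both WT lysates, a rise by which the genes were chosen.

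On the ER the genes parted in pairs. DST gave -0.24 and -0.22 and RSPRY1 0.08 and -0.32, while the medians of all genes were -0.33 and -0.44, so that both lay above the median in each lysate. RESF1 gave -0.999 and -0.74 and NRIP1 -0.80 and -0.70, both below the median in each lysate. In the edgeR fit, scaled to the total of coding footprints whereas the RPKM ratios are scaled to all reads on annotated transcripts, all 4 were called lower, as were 72.0% of 7390 genes; 19.9% were called higher. RESF1 was at -1.17 ± 0.19 (adjusted p = 1.4e-05) and NRIP1 at -1.03 ± 0.14 (adjusted p = 2.5e-06), that is 0.48 and 0.35 under the median of all genes on the log2 scale. DST was at -0.52 ± 0.15 (adjusted p = 0.0030) and RSPRY1 at -0.40 ± 0.15 (adjusted p = 0.018), which is 0.16 and 0.28 over the median. With TMM scaling, which moved the median from -0.68 to -0.03, RESF1 (-0.52, adjusted p = 0.034) and NRIP1 (-0.39, adjusted p = 0.030) remained lower, whereas DST (0.13) and RSPRY1 (0.25) turned positive without passing. The calls of DST (-0.42) without ER replicate 1 and of RSPRY1 (-0.52 and -0.29) without either replicate were also lost.

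In the cytosol none of the 4 genes passed the test, where edgeR called 2.04% of 7173 genes higher and 5.95% lower. DST gave -0.22 and 0.17 and RSPRY1 -0.01 and -0.12, at or under the medians of 0.24 and 0.25. RESF1 gave 0.29 in replicate 1 and 1.30 in replicate 2, the latter rank 3 of 7217 genes, and NRIP1 gave 0.18 and 0.78. The fitted values were 0.49 ± 0.19 for RESF1 (adjusted p = 0.14) and 0.22 ± 0.14 for NRIP1 (adjusted p = 0.41). Without cytosol replicate 1 they were 1.07 (adjusted p = 0.00049) and 0.55 (adjusted p = 0.034), and without replicate 2 they were 0.05 and -0.06. The headers of the total input and the pulldown of cytosol replicate 1 name different raw data folders, and the part of this in the result was not tested.

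The order of the 4 genes by mRNA differed from that by footprints. In WT lysates, where edgeR called 20.2% of 13856 genes higher than total input and 45.6% lower, RSPRY1 had log2 OMM enrichments of 1.11 and 1.35 and NRIP1 0.46 and 0.64, above 94.97% and 96.3% and above 84.4% and 87.7% of all genes. RESF1, near the top of all genes by footprints, gave -0.27 and 0.09, above 50.8% and 71.4% of all genes. DST gave -0.79 and -0.91, below the medians of -0.29 and -0.34, and 17.2% to 18.9% of all genes lay under it. Of the 50 long mitochondrial genes (over 400 amino acids) above 1.5 in mito replicate 1, none lay under DST in either WT lysate, and 2 and 1 lay under RESF1. For RSPRY1 these counts were 27 and 25, and for NRIP1 11 and 11.

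In AKAP1 null lysates all 4 mRNAs had a higher log2 OMM enrichment than in WT, and the groups did not overlap for any of them. Both AKAP1 null lysates lay above both WT lysates for 55.6% of 12865 genes. NRIP1 gave 1.80 and 2.25, RSPRY1 2.20 and 2.47, RESF1 1.14 and 1.47, and DST 0.03 and 0.34, in lysates where 13.9% of genes were called higher than total input and 28.1% lower. The fitted changes, AKAP1 null minus WT, were 1.47 ± 0.25 (SE) for NRIP1, 1.40 ± 0.28 for RESF1, 1.10 ± 0.15 for RSPRY1 and 1.04 ± 0.27 for DST, against a median of 0.19 over 13856 genes, and ranked 36, 49, 148 and 176. These changes chose the genes and are given without a test. RSPRY1 and NRIP1 ended within the top 100 of all genes in both AKAP1 null lysates (ranks 55 and 70, and 98 and 90), and RESF1 within the top 200 (194 and 174). DST stayed far lower, at ranks 5128 and 1818. The order of the 4 genes by level was RSPRY1, NRIP1, RESF1 and DST in every WT and AKAP1 null lysate. RSPRY1 lay above NRIP1 within each AKAP1 null lysate (2.20 against 1.80, and 2.47 against 2.25), a difference that was not tested.

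For 3 of the 4 genes the groups stood apart in the pulldown but not in the total input. The genes were chosen for a rise in the ratio of these same libraries, so the choice fixed part of the higher pulldowns. Among 12865 genes, 46.6% lay higher in both AKAP1 null pulldowns than in both WT pulldowns, and 35.5% stood apart in total input in either direction. The total-input levels of RSPRY1 (61.2 and 58.4 CPM in WT, 54.9 and 61.0 CPM in AKAP1 null), RESF1 (58.5 and 51.0, then 55.5 and 54.1 CPM) and NRIP1 (82.0 and 96.1, then 82.8 and 82.7 CPM) overlapped between the groups. Their pulldown levels stood apart, from 132 and 149 to 252 and 338 CPM for RSPRY1, from 48.4 and 54.3 to 123 and 150 CPM for RESF1, and from 113 and 150 to 289 and 393 CPM for NRIP1. DST stood apart in both fractions, with 105 and 107 CPM in WT total inputs against 170 and 157 CPM in AKAP1 null ones, and 60.6 and 56.9 CPM in WT pulldowns against 174 and 199 CPM. In bulk samples, fewer cells with an mRNA and less of it per cell cannot be told apart.

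Protein length, which was not used in the choice, differed between the 4 genes and the rest of the 74. All 4 proteins were longer than 400 amino acids, against 2 of the other 70 (DEF8, whose change was -1.06, and HSP90B1, 0.50), while 61 of those 70 were under 200 amino acids. Of the 70, 67 fell in AKAP1 null cells, none rose, and their median change was -1.55. Among mitochondrial genes above 1.5, 48 of 50 long ones rose (median change 1.28), the gene that fell being AKAP1 itself, and all 31 short ones (under 200 amino acids) fell (median -1.83). The median of 1.25 over the 4 genes comes from the changes that chose them and is no support for a likeness to the long mitochondrial genes. Of 3917 non-mitochondrial genes over 400 amino acids measured in mito replicate 1, 382 rose (9.75%) and 31 fell (0.79%), with a median change of 0.30, beside 6.52% and 7.96% of all genes tested.

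**Figure D2:**
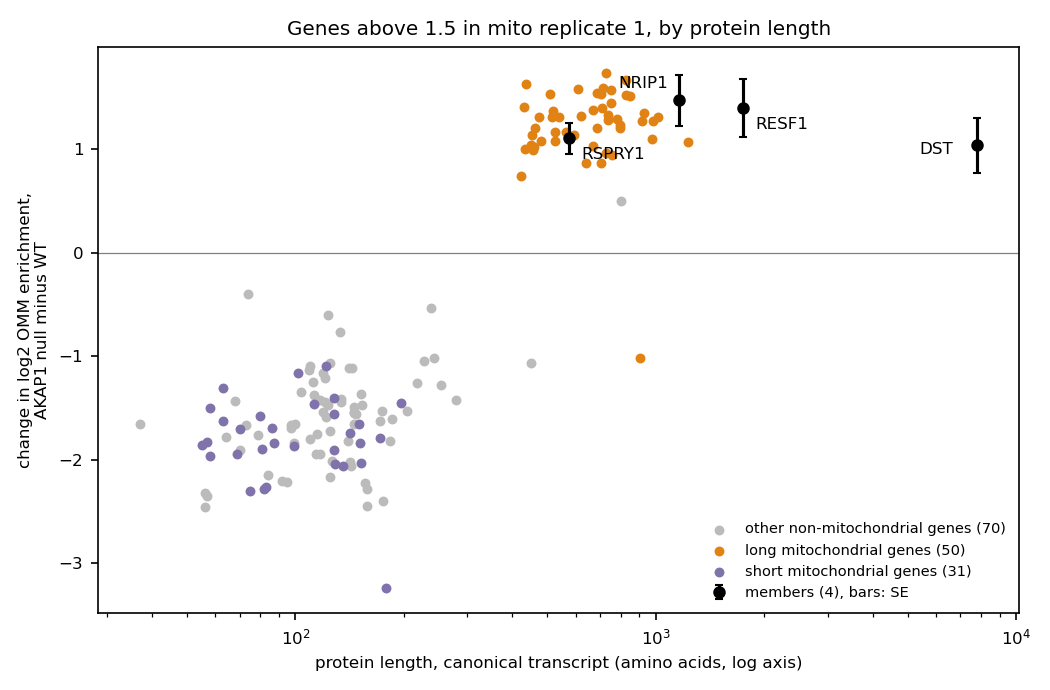
Change in log2 OMM enrichment of mRNA, AKAP1 null minus WT (y axis), against protein length in amino acids (x axis, log scale) for genes above 1.5 in mito replicate 1; bars on the 4 members are SE of the fit. The members sit between 1.04 and 1.47, and the other non-mitochondrial genes have a median of -1.55. These changes chose the members, so their place beside the long mitochondrial genes is no support for a likeness.

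LARP4 null lysates, which took no part in the choice, were compared next; the comparison with WT shares the WT libraries that did. RSPRY1 gave 1.18 and 1.23, near its WT values. DST gave -1.02 and -0.09, RESF1 -0.30 and 0.60, and NRIP1 0.21 and 0.96, so that in each of these 3 genes replicate 2 lay well above replicate 1. In edgeR, 22.8% of 13856 genes were called higher than total input and 30.0% lower. RSPRY1 was enriched at 1.21 ± 0.10 (adjusted p = 0.00013) and NRIP1 at 0.58 ± 0.18 (adjusted p = 0.023), DST was depleted at -0.55 ± 0.19 (adjusted p = 0.040), and RESF1 (0.16 ± 0.20, adjusted p = 0.52) did not pass. The calls of NRIP1 (adjusted p = 0.14) and DST (adjusted p = 0.50) were lost without the lysate term. Without replicate 1, RESF1 was at 0.60 (adjusted p = 0.00023) and DST at -0.09, not called, and without replicate 2, RESF1 was at -0.30 (adjusted p = 0.046) and NRIP1 at 0.21, not called.

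Against WT, no member passed the test in LARP4 null cells. The changes were 0.30 ± 0.27 for DST (adjusted p = 0.51), 0.25 ± 0.28 for RESF1 (adjusted p = 0.59), 0.03 ± 0.25 for NRIP1 (adjusted p = 0.95) and -0.02 ± 0.15 for RSPRY1 (adjusted p = 0.93), with a median of 0.17 over all genes. Approximate 95% intervals from a normal distribution ran from -0.23 to 0.83 for DST and from -0.29 to 0.80 for RESF1. Those of NRIP1 and RSPRY1 ran from -0.45 to 0.52 and from -0.31 to 0.26. All 4 are narrower than intervals based on the few degrees of freedom behind the p-values. edgeR called 0 genes higher and 0 lower of 13856 (0.0%), although 1604 and 666 had an unadjusted p below 0.05, and DESeq2 called 4 and 491. This outcome hung on the LARP4 null lysates: without replicate 1, DST (0.76, adjusted p = 0.00011), RESF1 (0.70, adjusted p = 0.00081) and NRIP1 (0.40, adjusted p = 0.036) were higher than in WT and 4521 genes were called higher, whereas without replicate 2 the same 3 genes were at -0.17, -0.21 and -0.35 and none passed. The total input of LARP4 null replicate 2 was the deepest library, with 100840544 counts against 47931044 in replicate 1, and the part of depth in the difference was not tested. RSPRY1 stayed between -0.14 and 0.10 whichever lysate was left out.

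In total input, DST stood at 136.5 and 208 CPM in LARP4 null cells against 105 and 107 CPM in WT, a log2 difference of 0.72 ± 0.20 that did not pass the test across all genes (edgeR adjusted p = 0.99). It was 0.37 without LARP4 null replicate 2 and 1.00 without replicate 1, not called in either (adjusted p = 0.52 and 0.14). RSPRY1, RESF1 and NRIP1 were within 0.23 of WT on the log2 scale. Leaving out a lysate gave 0.17 to 0.26 for RSPRY1, 0.045 to 0.39 for RESF1 and 0.028 to 0.40 for NRIP1. With all lysates, only 1 gene of 13977 was called higher and 1 lower (0.00715% each).

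**Figure D3:**
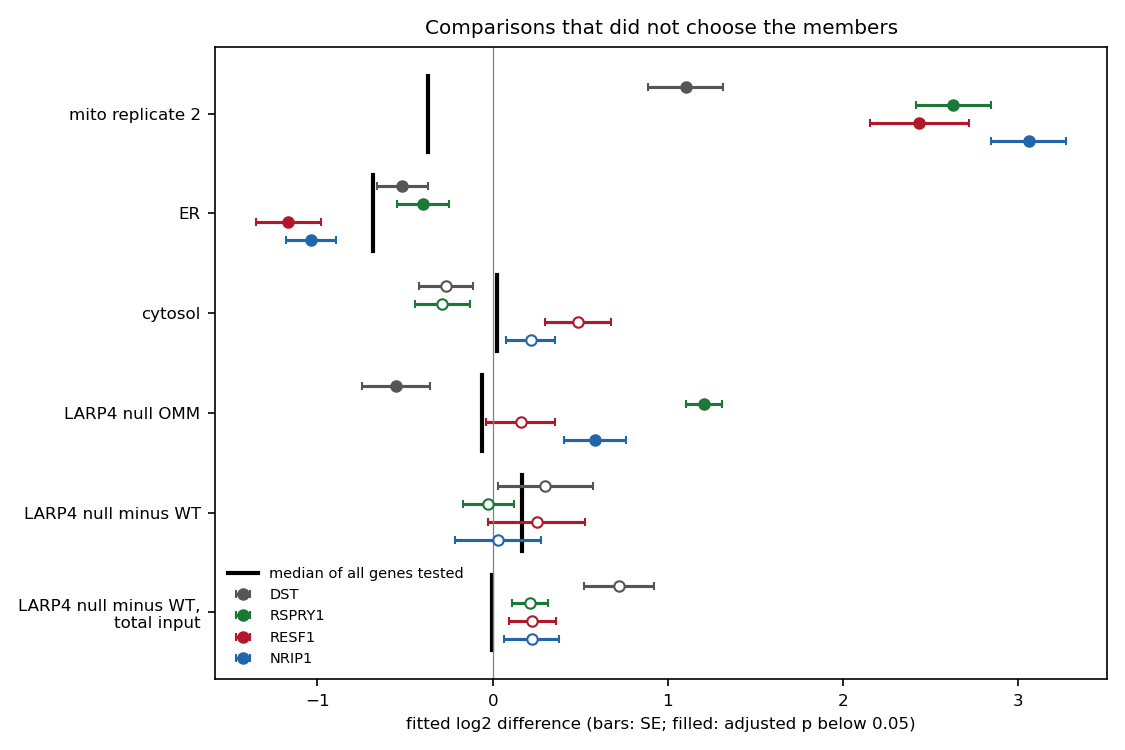
Fitted log2 difference (x axis) for each member in the 6 comparisons that did not choose the genes (y axis), with SE bars, filled points where the adjusted p was below 0.05, and the median of all genes tested (vertical bars). All 4 members lie above the bar in mito replicate 2, RESF1 and NRIP1 lie left of it on the ER, and LARP4 null minus WT holds no filled point.

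Without CHX, a single lysate, the enrichments of RESF1 (1.55) and NRIP1 (2.09) lay above all their values in WT, RSPRY1 (0.74) lay below both of its WT values, and DST (-0.01) lay above both of its own. Of 13016 genes, 60.5% lay above both WT lysates and 26.9% below both. The median of all genes was -0.13, against -0.29 and -0.34 in WT, and that of the 50 long mitochondrial genes was 1.56, against 0.98 and 1.31. Without CHX, NRIP1 lay above 38 of those 50, RESF1 above 25, RSPRY1 above 13 and DST above 4. The methods give this lysate a shorter time of biotin and blue light than its standard protocol, so that CHX and labelling time cannot be told apart. Its label names no genotype or control gRNA, whereas that of WT does, so the cells may differ as well. The single lysate was not tested here.

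Footprints in the 5′ UTR, a reading taken after the other values were known, were a smaller share in the mito pulldown than in total input. This held for all 4 genes in both replicates, but for DST the counting intervals overlapped. Translation of short upstream reading frames leaves footprints there, and the canonical 5′ UTRs of DST, RSPRY1, RESF1 and NRIP1 hold 2, 5, 4 and 7 copies of ATG, a triplet found in 42.7% of 19647 canonical 5′ UTRs. Summed over the 4 genes, 5′ UTR footprints made up 19.5% and 12.2% of all 5′ UTR and coding footprints in the mito total inputs but 3.61% and 2.60% in the pulldowns. On the ER the same shares were 17.5% and 13.1% in total input and 19.9% and 10.9% in pulldown, and in the cytosol 18.9% and 23.6% against 15.5% and 11.9%.

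The ratio between both shares was largest for NRIP1. In mito replicate 1, its 5′ UTR held 34 of 199 footprints of the total input (17.1%, exact 95% binomial interval 12.1% to 23.0%) and 2 of 320 in the pulldown (0.625%, 0.0758% to 2.24%). In replicate 2 the counts were 39 of 347 (11.2%, 8.12% to 15.0%) and 9 of 1188 (0.758%, 0.347% to 1.43%). Scaled to library totals, its coding footprints in replicate 2 were higher in pulldown than in total input by 3.06 on the log2 scale, and its 5′ UTR footprints differed by -0.94. The 5′ UTR footprints of the others did not all lie lower in the pulldown: they differed by 0.80 for RSPRY1, 0.64 for DST and -0.67 for RESF1 in replicate 2, and by 0.10 and 0.14 over the 4 genes in both replicates, where coding footprints differed by 2.80 and 2.53. In these sums the smaller share went with more coding footprints, not fewer in the 5′ UTR. The coding footprints of replicate 1 chose the genes and enter its share, so that only replicate 2 holds footprints the choice did not use. A coding enrichment that recurs in replicate 2 lowers the share there as well.

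RSPRY1, whose 5′ UTR share was the highest of the 4, went from 31.0% (49 of 158, interval 23.9% to 38.9%) to 11.2% (39 of 349, 8.07% to 15.0%) in mito replicate 2. RESF1 went from 8.33% (22 of 264, 5.30% to 12.3%) to 0.988% (6 of 607, 0.364% to 2.14%). For these genes and NRIP1 the intervals of total input and pulldown did not overlap in mito replicate 2, nor in replicate 1, where the choice fixed part of the difference. Those of DST overlapped in both, at 4.72% (10 of 212) and 3.40% (7 of 206) in replicate 2. On the ER the intervals of all 4 genes overlapped in both replicates, those of DST in replicate 2 only between 4.86% and 4.93%. In the cytosol RESF1 in replicate 2 (21.4% to 5.24%) and NRIP1 in both replicates (15.4% to 8.30%, and 20.1% to 7.28%) also had a smaller 5′ UTR share in the pulldown with intervals that did not overlap. The intervals cover counting error only. No share of all genes with intervals apart is given here, so these counts of members say nothing particular about them.

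A smaller 5′ UTR share in the pulldown was not particular to these genes. Over all genes it went from 8.72% and 7.99% to 6.75% and 5.86% in the mito samples, from 8.87% and 7.14% to 4.38% and 3.87% on the ER, and from 9.25% and 12.5% to 5.10% and 5.22% in the cytosol. Long mitochondrial genes above 1.5 went from 3.53% and 4.32% to 0.531% and 0.606% in the mito samples, and short ones from 8.14% and 7.64% to 2.31% and 1.97%. The other 70 non-mitochondrial genes above 1.5, which passed the same threshold, went from 9.78% and 9.72% to 2.60% and 2.49%. The log2 change of 5′ UTR footprints minus that of coding footprints was taken gene by gene in mito replicate 2. It needed at least 10 footprints in the 5′ UTR in total input. It was -3.99 for NRIP1 (rank 24 from the lowest of 4441 genes), -3.10 for RESF1 (rank 91), -1.83 for RSPRY1 (rank 405) and -0.46 for DST (rank 1880). The median was -0.29 over all 4441 genes, -3.01 over 26 long and -2.17 over 25 short mitochondrial genes. Over 48 other non-mitochondrial genes above 1.5 it was -1.92.

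**Figure D4:**
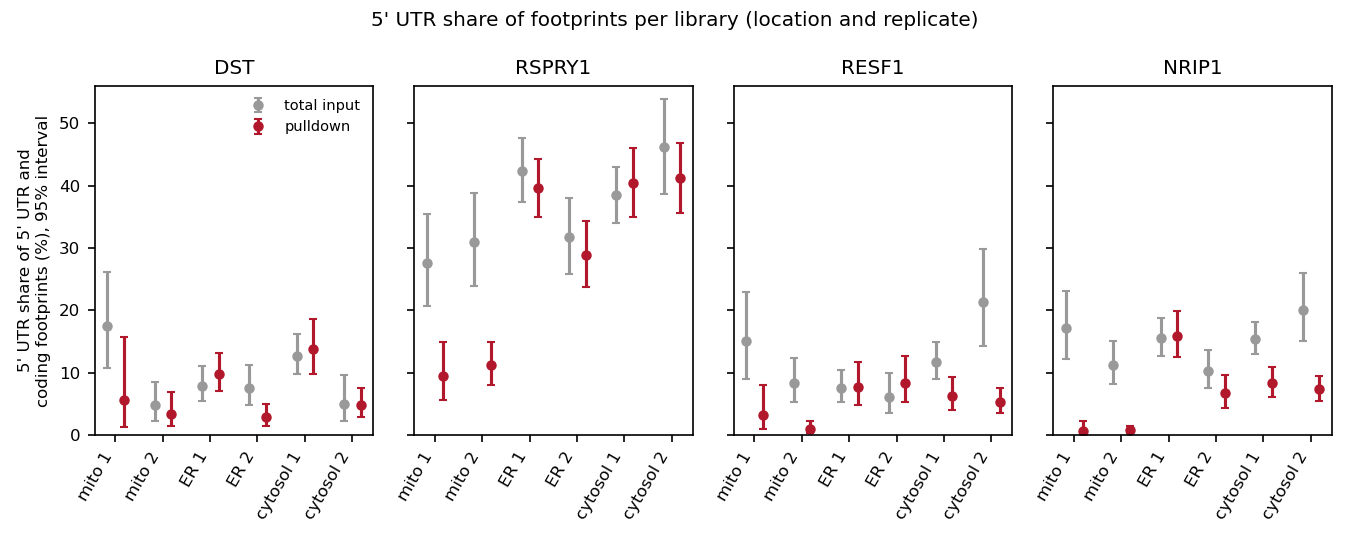
Share of 5′ UTR footprints among the 5′ UTR and coding footprints of each member (y axis, percent) in total input (grey) and pulldown (red) of each location and replicate (x axis), with exact 95% binomial intervals. In both mito replicates every member has a lower share in the pulldown than in total input, with intervals that overlap for DST only. On the ER the intervals of each pair overlap.

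The genes with the most similar values depended on the lysates compared. Over the 13 lysates, among 6424 genes with 64 footprints or counts in every total input, the 3 genes nearest each member by root mean square difference in log2 enrichment were 11 distinct genes, 9 of them mitochondrial. These distances include the lysates that chose the genes, so that mitochondrial neighbours were partly fixed by the choice. Those of RSPRY1 were ACSS1, a mitochondrial acetyl-CoA synthetase (0.31), PTCD3 of the mitochondrial ribosome (0.33) and LETM1, an inner membrane cation exchanger (0.38). Those of NRIP1 were the glycerol-3-phosphate dehydrogenase GPD2 (0.40), the tRNA-processing enzyme ELAC2 (0.43) and the alanyl-tRNA synthetase AARS2 (0.46). RESF1 was nearest to GPD2 (0.46), the dehydrogenase subunit DHTKD1 (0.48) and NRIP1 itself (0.53). DST was nearest to VWA8 (0.41), the pyruvate dehydrogenase kinase PDK3 (0.43) and the cytosolic NAD synthetase NADSYN1 (0.44). It lay 0.98 or more from the other members, and RSPRY1 and RESF1 lay 0.97 apart. Over the 8 lysates that took no part in the choice, a comparison added after seeing the data, 4 of 11 distinct nearest genes were mitochondrial, where 10.3% of the genes compared were. RSPRY1 was then nearest to RPL23A (0.25) and RPL37A (0.31), both proteins of the large ribosomal subunit, and to PTRHD1 (0.33), and DST to NADSYN1 (0.26). RESF1 was nearest to NRIP1 (0.42), and NRIP1 to MMUT, the methylmalonyl-CoA mutase (0.34), GPD2 (0.40) and ELAC2 (0.41).

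Genes related to the members in function were set beside all genes. Of 12 plakins and cytoskeletal linkers, 14 SPRY and RING proteins, 14 factors of retroelement silencing and 23 nuclear receptor coregulators measured in mito replicate 1, none exceeded 1.5, a threshold that 1.18% of non-mitochondrial genes passed, and the highest were MAPRE3 (-0.22), FSD1 (0.93), SUV39H2 (0.78) and HDAC3 (0.19). In mito replicate 2, 10 of 13 linkers were called lower and none higher, among them the giant plakin MACF1 (-1.27 ± 0.27, edgeR adjusted p = 0.0034), desmoplakin (DSP, -1.21 ± 0.16, adjusted p = 0.00021) and the dystrophin relative UTRN (-1.47 ± 0.26, adjusted p = 0.0011). The list's median was -0.84, against -0.37 over all genes, of which 34.6% were called lower. Of 14 SPRY and RING proteins, FSD1, a microtubule-associated protein, was called higher (1.08 ± 0.20, adjusted p = 0.0016) and HNRNPU (-0.90), RANBP9 (-0.89) and DDX1 (-0.85) were lower, with a median of -0.28. Of 14 silencing factors 6 were lower and none higher (median -0.62), led by the methyltransferase EHMT2 (-1.12), the SETDB1 partner ATF7IP (-1.01) and TRIM28 (-0.96). Of 22 coregulators 14 were lower and none higher (median -0.78), led by NCOA7 (-1.71), the corepressor NCOR1 (-1.15) and the deacetylase HDAC2 (-1.14).

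On the ER, 13 of 13 linkers, 12 of 14 SPRY and RING proteins, 14 of 14 silencing factors and 24 of 24 coregulators were called lower, as were 72.0% of all genes, a share that falls with TMM scaling. Their medians were -1.22, -0.74, -1.18 and -1.06 against -0.68 over all genes. SPTAN1 (-1.87), HNRNPU (-1.32), ATF7IP (-1.69) and NCOR1 (-1.66) led these lists, and the ubiquitin ligase subunit RNF123 (0.59) was called higher. In the cytosol, 2 of the 61 listed genes tested were lower (3.28%, beside 5.95% of all genes), HNRNPUL1 (-0.35) and the DNA methyltransferase DNMT1 (-1.33), and none was higher, as were 2.04% of all genes. In AKAP1 null cells against WT, the spectrin SPTBN1 (0.51) and the corepressor subunit TBL1XR1 (0.64) rose and FSD1 fell by 0.84 in edgeR, and no other of the 74 listed genes tested was called, that is 2 of 74 higher and 1 of 74 lower, beside 6.52% and 7.96% of all genes; the list medians of 0.30, 0.23, 0.22 and 0.34 stood beside 0.19 over all genes. Against total input in LARP4 null cells, where 13, 19, 17 and 25 genes of the lists were tested and 22.8% of all genes were called higher and 30.0% lower, 2 linkers (the plakins PLEC, 1.35, and EPPK1, 0.93), 2 SPRY and RING proteins (SPSB2, 0.87, and FSD1, 0.71) and 3 coregulators (the nuclear receptors ESRRA, 0.54, and NR2F1, 0.36, and the corepressor CTBP1, 0.43) were higher, and 7 linkers, 8 SPRY and RING proteins and 11 coregulators were lower. No silencing factor was higher and 6 were lower, CBX5 (-0.99) the most. Between LARP4 null and WT edgeR called none of the 74 listed genes in enrichment or in total input, where it called 0.0% and 0.00715% of all genes in each direction, so that these counts say nothing particular about the lists.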

How the data were processed

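Ribosome profiling files held, as deposited, estimated counts and RPKM per gene for all exons, the coding sequence and the 5′ UTR. Per the study's methods and the file headers, the authors removed rRNA and tRNA reads with Bowtie, aligned to GRCh38 and counted footprints of 27 to 36 nt with plastid, ignoring 13 nt at each end. RNA-seq files held whole-number gene counts, deposited after STAR and featureCounts. Their deposited FPKM column was treated as a score, since it was about 10.0 times FPKM from the counts, and was used only in ratios. Library totals ran from 1025114 to 19539527 coding footprints and from 38347615 to 100840544 gene counts. They limit the precision of low genes.

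Footprint enrichment per lysate was the log2 RPKM ratio of pulldown to total input with at least 64 footprints in total input. For mRNA it was the log2 CPM ratio with 0.5 counts added. Estimated counts were rounded. Tests were two-sided edgeR (4.0.16) quasi-likelihood fits across all genes, with Benjamini-Hochberg adjustment. Enrichment fits had a term per lysate, and library totals set their scale. Fits of total input alone had no such term, and TMM set their scale. Total input and pulldown came from 1 lysate per the study's methods, and their deviations correlated (r from 0.63 to 0.88 across genes over 6 groups). Fits were tested on simulated data. Named genes were the members, AKAP1 and LARP4, the genes next to the threshold, the 3 nearest genes per member and the leading called genes of fixed lists; DEF8, HSP90B1, DDX1, RNF123, ESRRA, NR2F1, CTBP1, MTLN, UQCC5 and the genes nearest over 8 lysates were named after their values were seen. Members, lists and tests were chosen with earlier results of these data known. Alternatives were TMM, DESeq2 (1.42.0), other minimums, no lysate term, all exons, fewer libraries and leaving out each lysate. Mitochondrial genes were taken from the study's supplement by identifier or name (1057 genes). A further 6 names were not matched, so some mitochondrial genes may count as non-mitochondrial. Protein sequences were not analysed here.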

Additional observations from a re-analysis of the deposited data

Results flagged for a closer look

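Some members had opposite signs of log2 enrichment in both lysates of a pair of groups. None of these differences between groups was itself tested, apart from AKAP1 null minus WT, whose test chose the genes. The sign depends on the scaling of the libraries, and for every pair that includes the mito, WT or AKAP1 null samples, the choice of the genes fixed part of it. Between the cytosol and the ER, means were higher in the cytosol by 1.66 for RESF1 and by 1.23 for NRIP1 on the log2 scale, against a median of 0.61 over 6809 genes, of which 50.5% were above 0 in both cytosol lysates and below 0 in both ER lysates. The difference of RESF1 was 2.17 without cytosol replicate 1 and 1.16 without replicate 2, and that of NRIP1 1.53 and 0.93. Mito minus ER was 1.54 for DST, 3.38 for RESF1 and 3.89 for NRIP1, signs shared by 10.4% of 6673 genes. Mito minus cytosol was 2.75 for RSPRY1, signs shared by 2.66% of 6463 genes. For DST, AKAP1 null minus WT was 1.04 and LARP4 null minus AKAP1 null was -0.74, with the same signs in 6.49% of 12865 and 2.33% of 13117 genes. The latter difference was -0.27 without LARP4 null replicate 1 and -1.21 without replicate 2.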

How the results depend on the processing

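Depth limited the members' footprint ratios, which rested on as few as 85 coding footprints in total input for DST, 92 for RESF1 and 94 for RSPRY1. Fitted values of the members minus the median of all genes moved by less than the fits' SE between library totals, TMM and DESeq2. With thresholds of 1 and 2 in place of 1.5, 249 and 19 non-mitochondrial genes passed in place of 74.

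On the ER, DST and RSPRY1 turned to 0.13 and 0.25 with TMM and 0.092 and 0.21 with DESeq2, not called. Without the replicate block (the lysate term) DST was at -0.49 (adjusted p = 0.34) and RSPRY1 at -0.42 (adjusted p = 0.18), neither called; leaving out a replicate gave -0.61 to -0.42 and -0.52 to -0.29. Genes called lower numbered 5322, against 1876 with TMM, 1564 with DESeq2 and 3177 without the block, and genes called higher 1469, against 2228 with a minimum of 10 and 2578 with none. In the cytosol, RESF1 was at 0.48 (adjusted p = 0.026) with no minimum, and leaving out a replicate gave 0.050 to 1.07 for RESF1 and -0.057 to 0.55 for NRIP1. Genes called higher numbered 146, against 77 with DESeq2, 229 with no minimum, 0 without the block, 321 over all exons, 39 within the location alone and 227 to 276 without a replicate; genes called lower numbered 427, against 263 with DESeq2 and 29 without the block. In mito replicate 2, no call of a member held without the block, at 1.10 for DST (adjusted p = 0.33), 2.63 for RSPRY1 and 3.06 for NRIP1 (adjusted p = 0.063 each) and 2.43 for RESF1 (adjusted p = 0.082); 957 genes higher became 1 and 2448 lower became 0, against 941 lower with TMM and 455 with DESeq2.

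In LARP4 null cells, DST was at -0.39 and NRIP1 at 0.67 without the block, neither called. With the LARP4 null libraries alone they were at -0.55 and 0.58, again not called. Leaving out a LARP4 null lysate gave -1.02 to -0.087 for DST, -0.30 to 0.60 for RESF1 and 0.21 to 0.96 for NRIP1. Genes higher numbered 3161, against 1576 without the block and 1619 with the LARP4 null libraries alone, and genes lower 4151, against 2091 and 2223. For LARP4 null against WT, NRIP1 turned to -0.18 with TMM and -0.18 with DESeq2, not called. Leaving out a lysate gave -0.17 to 0.76 for DST, -0.14 to 0.10 for RSPRY1, -0.21 to 0.70 for RESF1 and -0.35 to 0.40 for NRIP1, with 0 to 4521 genes higher and 0 to 1143 lower; DESeq2 gave 4 and 491, and no minimum 771 and 316. In total input, DST was called with no minimum (0.74, adjusted p = 8.5e-05); 1 gene higher and 1 lower became 14 and 14 with DESeq2, 170 and 66 with no minimum, 0 and 0 with the replicate block or WT and LARP4 null alone, and 0 to 7 and 0 to 1 without a lysate. Replicate numbers did not pair total inputs across genotypes (r = 0.21, 0.31 and -0.16 across genes). The cause of these shifts was not tested. For AKAP1 null against WT, the 4 changes ran from 0.87 to 1.70 over the 10 alternatives, while 903 genes called higher became 285 with TMM, 369 with DESeq2, 98 without the block, 4529 with those genotypes alone and 121 to 208 without a lysate, and 1103 lower became 331 without the block, 1934 with those genotypes alone and 358 to 537 without a lysate. Minimums of 5 and 20 footprints in the 5′ UTR, chosen after seeing the data, gave medians over all genes of -0.30 and -0.28 in mito replicate 2.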
